A study of Homo sapiens with 4 samples.

Results

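The 6 CXC chemokine genes CXCL1, CXCL2, CXCL3, CXCL5, CXCL6 and CXCL8 were followed by RNA-seq in PC3 cells, a line from a prostatic adenocarcinoma. They are 6 of the 43622 genes in the deposited table of TPM, a unit of transcript abundance corrected for transcript length. They were chosen by name as the chemokines that draw neutrophils, and they were selected on their measured levels in the 4 conditions. Their levels and the differences between conditions are therefore given as a description. Calls and p-values printed for them below come from a fit over all genes compared and are no independent test of the members. All 6 averaged 0.1 TPM or more across the 12 libraries and so stood among the 19932 genes that were compared.

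The 4 conditions were named Ctrl, MLN, shARF and Both, with 3 libraries each. Ctrl was PC3 cells given the vehicle DMSO, and MLN was the same cells given 1 µM MLN4924 (pevonedistat). MLN4924 inhibits the enzyme that activates NEDD8, a ubiquitin-like protein that is attached to cullins and is needed for cullin-RING ubiquitin ligases to work. shARF was PC3 cells carrying an shRNA against p14ARF (genotype Sh ARF) and given DMSO, and Both was those cells given 1 µM MLN4924. RNA was taken on day 3 in every condition. p14ARF is a tumor suppressor made from CDKN2A, which also encodes p16INK4a. The shRNA came in a retroviral vector with drug selection, and no control shRNA is named for Ctrl and MLN, so depletion of p14ARF cannot be told apart from the vector and the selection. Whether the depleted cells were a pool or 1 clone, and whether libraries of a condition came from separate cultures, is not given in the sources used here; p-values then measure the spread between these libraries, which may be technical.

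Neutrophil-attracting CXC chemokines are small secreted proteins that carry a glutamate-leucine-arginine motif before their paired cysteines. They bind the receptor CXCR2 on neutrophils, and CXCL6 and CXCL8 also bind CXCR1. Epithelial and tumor cells make them after interleukin-1, TNF or microbial signals. Their promoters are known to be driven by NF-kB, a transcription factor held inactive by inhibitors such as IκBα, and their mRNAs are short-lived and carry AU-rich elements. Degradation of IκBα needs a cullin-RING ligase, so the neddylation pathway that MLN4924 blocks acts on this system. CXCL8 (interleukin-8) is the best known of the group and has long been studied in PC3 cells.

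The genes lie together on chromosome 4 (GRCh38, GENCODE 44), within 359 kb and with 4 exons each in the transcript used. CXCL8 (ENSG00000169429.12) spans chr4:73740519-73743716, CXCL6 (ENSG00000124875.10) chr4:73836640-73849064 and CXCL1 (ENSG00000163739.5) chr4:73869393-73871308, all 3 on the plus strand. CXCL5 (ENSG00000163735.7) spans chr4:73995642-73998677, CXCL3 (ENSG00000163734.4) chr4:74036589-74038807 and CXCL2 (ENSG00000081041.9) chr4:74097040-74099196, all 3 on the minus strand.

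The 150 bases before each transcription start are shown because these genes share 1 stretch there. The sequences come from the RefSeq promoter table (GRCh38.p14), in which all 6 genes were found. Transcription starts here are those of RefSeq. For CXCL2, CXCL3, CXCL6 and CXCL8 they lie inside the GENCODE spans given above, so these windows overlap those spans. Capitals mark matches on either strand to the NF-kB consensus in its 10-letter form or its 9-letter form, which lacks the first G; overlapping matches run together.
CXCL1 (chr4:73869243-73869392, plus strand): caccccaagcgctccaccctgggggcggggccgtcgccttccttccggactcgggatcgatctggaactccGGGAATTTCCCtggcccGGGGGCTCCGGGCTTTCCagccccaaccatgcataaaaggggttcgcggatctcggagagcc
CXCL2 (chr4:74099196-74099345, minus strand): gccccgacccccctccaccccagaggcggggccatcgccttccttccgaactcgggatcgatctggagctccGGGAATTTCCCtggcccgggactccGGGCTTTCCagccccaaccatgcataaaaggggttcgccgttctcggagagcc
CXCL3 (chr4:74038690-74038839, minus strand): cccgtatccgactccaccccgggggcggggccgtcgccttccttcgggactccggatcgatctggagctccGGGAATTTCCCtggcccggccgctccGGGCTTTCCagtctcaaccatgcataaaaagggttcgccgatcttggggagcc
CXCL5 (chr4:73998678-73998827, minus strand): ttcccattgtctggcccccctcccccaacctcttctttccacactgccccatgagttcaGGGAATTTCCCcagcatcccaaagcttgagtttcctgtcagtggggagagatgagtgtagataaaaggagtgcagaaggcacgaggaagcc
CXCL6 (chr4:73836528-73836677, plus strand): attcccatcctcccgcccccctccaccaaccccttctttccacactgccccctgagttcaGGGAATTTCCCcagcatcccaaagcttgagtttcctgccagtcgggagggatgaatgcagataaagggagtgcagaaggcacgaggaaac
CXCL8 (chr4:73740419-73740568, plus strand): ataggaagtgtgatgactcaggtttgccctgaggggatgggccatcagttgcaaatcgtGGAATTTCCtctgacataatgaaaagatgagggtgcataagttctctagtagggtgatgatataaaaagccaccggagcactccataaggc

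Each of the 6 sequences held GGAATTTCC. Its first base lay at -78 in CXCL1 and CXCL3, -77 in CXCL2, -90 in CXCL5, -89 in CXCL6 and -91 in CXCL8, counted from the transcription start. Of 35116 RefSeq promoters, 0.413% held these letters within 250 bases before the start; they were picked after the sequences had been read. The 10-letter consensus was found in 5 of the 6 genes, all but CXCL8, against 9.96% of all promoters. The 9-letter form was found in all 6, against 28.4% of all promoters. An AP-1 motif (TGACTCA or TGAGTCA) was found in CXCL8 alone, at -137, against 4.20% of all promoters. The letters TATAAA were found in CXCL8 alone (10.7% of all promoters). CXCL1, CXCL2 and CXCL3 had TGCATAAAA at -33 instead, which 0.236% of promoters held and which was also picked after reading the sequences. The C/EBP motif TTGCNNCAA was found in none of the 6 (1.62% of all promoters). Only exact matches to these letters were counted, so a C/EBP site that departs from them would be missed. Promoters of 250 bases were most alike in CXCL5 and CXCL6, with 85.6% identical positions, and in CXCL1 and CXCL3, with 84.0%. CXCL8 stood furthest from the others, at 43.6% (with CXCL2) to 48.0% (with CXCL3).

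The mRNAs of CXCL1, CXCL2 and CXCL3 are also alike. Over aligned bases, CXCL1 and CXCL2 were identical at 90.9% of positions, CXCL2 and CXCL3 at 83.6%, CXCL1 and CXCL3 at 82.2%, and CXCL5 and CXCL6 at 83.5%. Of all 50-base stretches, 5.33% in CXCL1, 10.1% in CXCL2 and 5.26% in CXCL3 occurred in another transcript of the family, and none did in CXCL5, CXCL6 or CXCL8. No stretch of 100 bases was shared. Reads from CXCL1, CXCL2 and CXCL3 may therefore have been split between these genes, and their separate levels are uncertain to that extent. The strand setting of the counting is not given in the sources used here. CXCL5 overlaps an antisense transcript and CXCL6 an annotated pseudogene, so reads there may have been shared with those features. Every member had the AU-rich pentamer ATTTA in its 3′ UTR, with 9 copies in CXCL8, 6 in CXCL6, 6 in CXCL1, 11 in CXCL5, 7 in CXCL3 and 10 in CXCL2. Among 19195 transcripts, 68.7% had at least 1 copy, with a median of 1.55 per kb. The members had 5.36 (CXCL6) to 13.97 per kb (CXCL2). The nonamer TTATTTATT, present in 8.60% of transcripts, occurred 5 times in CXCL2, 3 times in CXCL1, and 1 time each in CXCL3 and CXCL8.

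The total of every library was 1000000 TPM, so the values carry no depth and give no counting error per gene. Log2 values of libraries of 1 condition correlated at 0.982 to 0.988 across genes that averaged 1 TPM or more. The level of CDKN2A was 183 ± 6.49 TPM for Ctrl (SD, n = 3), 118 ± 16.4 for MLN, 59.3 ± 1.47 for shARF, and 47.5 ± 6.40 for Both. CDKN2A was lower in shARF than in Ctrl by a log2 difference of -1.63 ± 0.04 (SE; limma, adjusted p = 2.24e-05), in the direction of the label. The gene's value does not separate the transcripts of p14ARF and p16INK4a. CDKN2A was also lower in MLN than in Ctrl (-0.65 ± 0.11, limma, adjusted p = 0.00235). Of the epithelial markers, KRT19 (189 to 562 TPM over condition means), KRT18 (128 to 436) and KRT8 (80.2 to 145) were high, and EPCAM was at 19.8 to 76.5 TPM. The prostate markers KLK3 and KLK2 were each below 0.1 TPM in every condition mean.

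CXCL8 showed the widest range of the 6 genes. In Ctrl the 3 libraries had 926, 1085 and 983 TPM. In MLN they had 37120.3, 30320.3 and 26399.7 TPM, and in Both 35971, 37384 and 37772 TPM. In shARF they had 15.1, 18.0 and 16.6 TPM. The MLN and Both libraries overlapped in value and lay far above Ctrl, and the shARF libraries lay far below Ctrl. By level, CXCL8 was the most abundant transcript of all genes in each of the 6 MLN4924-treated libraries. It ranked 92 to 106 in Ctrl and 7101 to 7800 in shARF. In bulk RNA, fewer cells that make a transcript and less of it per cell cannot be told apart.

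CXCL1, the alpha form of the growth-regulated oncogene (GRO) chemokines, was the most abundant of the 6 in Ctrl. It was at 1323, 1208 and 1266 TPM in Ctrl and at 716, 767 and 792 TPM in MLN. It was at 8.62, 7.67 and 6.74 TPM in shARF, and at 845, 876 and 745 TPM in Both. The Ctrl libraries were the highest, the MLN and Both libraries overlapped, and the shARF libraries were the lowest.

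CXCL2, another GRO chemokine, changed least under MLN4924 in PC3 cells. Its Ctrl libraries had 118, 118 and 120.3 TPM and its MLN libraries 108, 95.9 and 106 TPM. In shARF the level was 1.26, 1.76 and 1.59 TPM, and in Both it was 85.3, 87.7 and 81.5 TPM. The 4 conditions did not overlap, and their order was Ctrl, MLN, Both and shARF.

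CXCL3, the third GRO chemokine, had 134, 115 and 150.0 TPM in Ctrl and 492, 410.0 and 451 TPM in MLN. It was at 0.638, 0.910 and 1.29 TPM in shARF and at 438, 473 and 462 TPM in Both. Like CXCL8, and unlike the other 4 genes, it was higher in all MLN4924-treated libraries than in every Ctrl library.

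CXCL6, a chemokine that signals through both receptors, had 191, 187 and 197 TPM in Ctrl and 124, 133 and 120.0 TPM in MLN. It was at 5.19, 7.05 and 7.85 TPM in shARF and at 91.6, 98.0 and 92.9 TPM in Both. The 4 conditions did not overlap, and their order was that of CXCL2.

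CXCL5, a chemokine of epithelial cells, was the least abundant of the 6 in every library. Its Ctrl libraries had 1.48, 1.77 and 1.68 TPM and its MLN libraries 0.174, 0.296 and 0.178 TPM. It was at 0.0620 TPM in shARF library 1 and listed at 0 in shARF libraries 3 and 5. In Both it was at 0.531, 0.359 and 0.460 TPM, above every MLN library and below every Ctrl library.

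The effect of MLN4924 in PC3 cells (MLN vs Ctrl) split the 6 genes. CXCL8 was 31.3-fold higher in MLN by the ratio of means and CXCL3 was 3.39-fold higher. CXCL1 was 1.67-fold lower, CXCL6 1.53-fold lower, CXCL2 1.15-fold lower and CXCL5 7.59-fold lower. On the scale of log2(TPM + 0.1), which is used for every log2 value here and which understates differences of genes as low as CXCL5, CXCL8 differed by 4.96 ± 0.18 (SE) and CXCL3 by 1.76 ± 0.12. The log2 differences were -2.48 ± 0.22 for CXCL5, -0.74 ± 0.07 for CXCL1, -0.61 ± 0.05 for CXCL6 and -0.20 ± 0.06 for CXCL2. The difference of CXCL5 was -1.12 with a pseudocount of 1 TPM and -2.90 with 0.01 TPM. At an adjusted p under 0.05 in limma, 2 of 6 members were called higher, where 32.2% of the genes tested were. The other 4 were called lower, where 29.4% of the genes tested were. The median log2 difference was -0.41 over the members and 0.05 over all genes tested. CXCL8 ranked 96 from the top of the 19932 genes by log2 difference, CXCL3 ranked 1651, and CXCL5 ranked 361 from the bottom. The call for CXCL2 was lost without Ctrl library 2 (-0.21, adjusted p = 0.0560 in limma) and without Ctrl library 3 (-0.19, adjusted p = 0.0700 in limma).

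Depletion of p14ARF without the drug (shARF vs Ctrl) went with lower levels of every member. By the ratio of means, CXCL1 was 165-fold lower, CXCL3 141-fold, CXCL2 77.3-fold, CXCL8 60.3-fold and CXCL6 28.6-fold. No such fold is given for CXCL5, which was listed at 0 in 2 of the 3 shARF libraries. The log2 differences were -7.35 ± 0.10 (SE) for CXCL1, -7.03 ± 0.25 for CXCL3, -6.19 ± 0.12 for CXCL2, -5.91 ± 0.09 for CXCL8, -4.84 ± 0.16 for CXCL6 and -3.89 ± 0.24 for CXCL5. The value for CXCL5 depended on the pseudocount, from -1.37 with 1 TPM to -6.41 with 0.01 TPM. All 6 were called lower (20.4% of the genes tested were), and all 6 with a log2 difference below -2 (2.12% of the genes tested were). These differences were among the values on which the members were selected. Counted from the lowest log2 difference of all genes, CXCL1 ranked 9, CXCL3 13, CXCL2 25, CXCL8 30, CXCL6 47 and CXCL5 77. The median was -6.05 over the members and 0.00 over all genes tested.

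In depleted cells, MLN4924 (Both vs shARF) went with higher levels of every member. By the ratio of means, CXCL8 was 2237-fold higher, CXCL3 484-fold, CXCL1 107-fold, CXCL2 55.2-fold and CXCL6 14.1-fold; none is given for CXCL5, for the same reason. The log2 differences were 11.12 ± 0.07 (SE) for CXCL8, 8.82 ± 0.22 for CXCL3, 6.73 ± 0.11 for CXCL1, 5.71 ± 0.12 for CXCL2, 3.81 ± 0.15 for CXCL6 and 2.22 ± 0.29 for CXCL5. For CXCL5 the value ran from 0.51 with a pseudocount of 1 TPM to 4.56 with 0.01 TPM. All 6 were called higher (28.3% of the genes tested were), and all 6 with a log2 difference above 2 (5.58% of the genes tested were). CXCL8 ranked 4 from the top of all genes and CXCL3 ranked 15. The median was 6.22 over the members and -0.04 over all genes tested.

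Under MLN4924, the means of the 3 most abundant members in depleted and undepleted cells (Both vs MLN) lay within 1.18-fold of each other. CXCL8 was 1.18-fold higher in Both, a log2 difference of 0.26 with a 95% interval of -0.80 to 1.32. CXCL1 differed by 0.11 (interval -0.11 to 0.34) and CXCL3 by 0.02 (-0.18 to 0.23), and the libraries overlapped for these 3 genes. The interval of CXCL8 depended on the settings of the fit. Its SE was 0.43 here, 0.12 with 12 libraries in one fit, 0.14 without the trend, 0.20 with the filter at 1 TPM and 2.80 with no filter, and it was not called in any of these. CXCL6 was 1.33-fold lower in Both (log2 difference -0.41 ± 0.06, SE) and CXCL2 was 1.22-fold lower (-0.28 ± 0.06). CXCL5 was 2.08-fold higher (0.81 ± 0.25, interval 0.19 to 1.43) and was not called. Of the 6 members, 2 were called lower (20.6% of the genes tested were) and 0 were called higher in limma (11.8% were), with 1, CXCL5, higher at an unadjusted p under 0.05. The median was 0.07 over the members and -0.08 over all genes tested. The call for CXCL2 was lost without MLN library 5 (adjusted p = 0.0618 in limma), without Both library 2 (0.0647) or without Both library 4 (0.0554). It was also lost with median-of-ratios scaling (-0.19, adjusted p = 0.0579 in limma). CXCL5 was called higher without MLN library 2 (0.98, adjusted p = 0.0468 in limma).

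The comparisons shARF vs Ctrl and Both vs MLN share no library, whereas MLN vs Ctrl and shARF vs Ctrl share Ctrl, and Both vs MLN and Both vs shARF share Both. For CXCL1 the log2 difference between depleted and undepleted cells was -7.35 without the drug and 0.11 with it. For CXCL8 these values were -5.91 and 0.26, and for CXCL3 they were -7.03 and 0.02. The interaction fitted over the 12 libraries, which is the drug's log2 difference in depleted cells less that in PC3 cells, was 7.47 ± 0.13 (SE) for CXCL1 and 7.06 ± 0.25 for CXCL3. It was 6.16 ± 0.17 for CXCL8, 5.91 ± 0.14 for CXCL2, 4.69 ± 0.43 for CXCL5 and 4.42 ± 0.16 for CXCL6. All 6 were called positive (11.2% of the genes tested were), and all 6 above 2 (1.11% of the genes tested were). For CXCL5 the value ran from 1.62 with a pseudocount of 1 TPM, which is under 2, to 7.46 with 0.01 TPM. Counted from the highest of 19932 genes, CXCL1 ranked 2, CXCL3 7, CXCL8 11, CXCL2 14, CXCL5 27 and CXCL6 29.

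**Figure D1:**
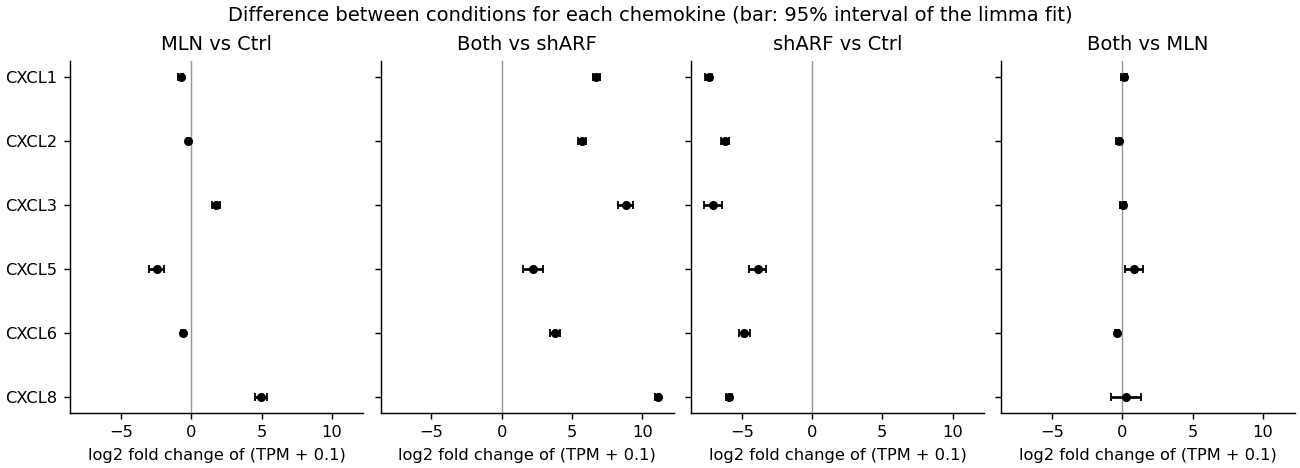
Log2 difference of TPM + 0.1 for each chemokine in the 4 pairwise comparisons, with the 95% interval of the limma fit as bars. MLN4924 split the genes in PC3 cells and went with higher levels of all 6 in depleted cells, while Both vs MLN lay near 0 for CXCL1, CXCL3 and CXCL8.

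The members also differed from each other in level within every condition. In Ctrl the order by TPM, which is per length and so allows genes to be compared, was CXCL1, CXCL8, CXCL6, CXCL3, CXCL2 and CXCL5. CXCL3 and CXCL2 overlapped there and are not separated by their spread. In MLN and in Both the order was CXCL8, CXCL1, CXCL3, CXCL6, CXCL2 and CXCL5 in every library, with no overlap between neighbours. In shARF the order was CXCL8, CXCL1, CXCL6, CXCL2, CXCL3 and CXCL5, and neither CXCL1 and CXCL6 nor CXCL2 and CXCL3 were separated by their spread. CXCL8 had 0.792 ± 0.10 times the level of CXCL1 for Ctrl (SD, n = 3), 41.6 ± 9.42 times for MLN, 2.19 ± 0.383 times for shARF, and 45.3 ± 4.64 times for Both. CXCL3 had 1.12 ± 0.136 times the level of CXCL2 for Ctrl, 4.36 ± 0.158 times for MLN, 0.612 ± 0.173 times for shARF, and 5.40 ± 0.267 times for Both. These 2 genes share sequence, as described above. The ratio of CXCL1 to CXCL6 was 6.61 ± 0.285 in Ctrl, 6.06 ± 0.469 in MLN and 8.73 ± 0.627 in Both, and 1.20 ± 0.413 in shARF.

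The 6 genes together made up 2709 ± 13.4 TPM for Ctrl (SD, n = 3), 32718 ± 5415 for MLN, 33.4 ± 2.32 for shARF, and 38501 ± 934 for Both. That is 0.271% of all transcripts for Ctrl, 3.27% for MLN, 0.00334% for shARF, and 3.85% for Both. CXCL8 made up 36.8% ± 2.85 of the sum for Ctrl, 95.5% ± 0.767 for MLN, 49.5% ± 1.16 for shARF, and 96.2% ± 0.228 for Both. Without CXCL8, the sum was 1711 ± 71.9 TPM for Ctrl, 1438 ± 31.2 for MLN, 16.9 ± 0.954 for shARF, and 1459 ± 76.6 for Both. MLN and Both overlapped in that sum. The relative spread of CXCL8 between libraries was 17.3% in MLN and 2.56% in Both.

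**Figure D2:**
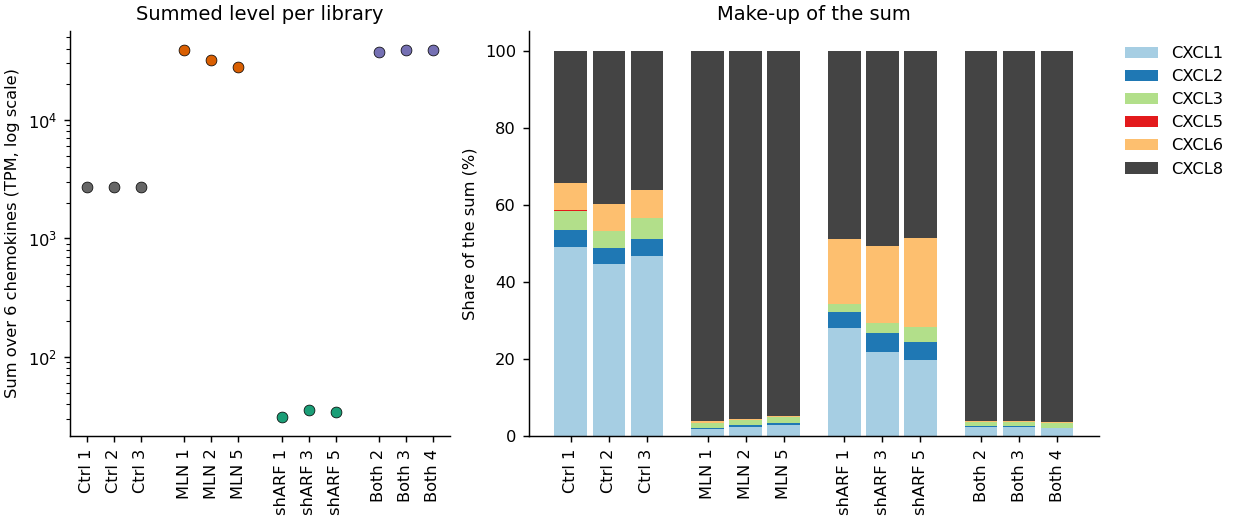
Left, summed level of the 6 chemokines in each library (TPM, log scale). Right, share of each chemokine in that sum (%). CXCL8 made up 94.7% to 96.5% of the sum in the MLN4924-treated libraries, and CXCL1 made up 44.5% to 49.1% in the Ctrl libraries.

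The remaining chemokines of the neutrophil-attracting and platelet groups were low. PPBP, which yields the neutrophil-activating peptide NAP-2, was at 0, 0.628 and 0.212 TPM in Ctrl and at 6.60, 3.57 and 2.53 TPM in MLN. It was listed at 0 in all shARF libraries and had 9.63, 8.71 and 10.2 TPM in Both. PPBP was higher in MLN than in Ctrl (log2 difference 3.83 ± 0.76, SE; limma, adjusted p = 0.00563) and in Both than in MLN (1.26 ± 0.33, adjusted p = 0.0343). The platelet chemokines PF4 and PF4V1 were below 0.1 TPM in every condition mean and were not tested. CXCL16, CXCL11, CX3CL1 and CXCL10, which act on lymphocytes and monocytes, were the most abundant of the 9 other CXC and CX3C chemokines, of which 6 were tested. In MLN vs Ctrl, 2 of the 6 were higher and 1 was lower, where 32.2% of all genes tested were higher, near the share on this list, and 29.4% lower. In shARF vs Ctrl, 2 were lower (20.4% of all genes were): CXCL10 (-1.67 ± 0.22, limma, adjusted p = 0.00353) and CX3CL1 (-4.27 ± 0.26, adjusted p = 0.000324). CX3CL1 had 3.29 TPM for Ctrl, 5.84 for MLN, 0.0786 for shARF, and 0.351 for Both. In Both vs shARF, 2 were higher and 2 lower, where 28.3% and 32.8% of all genes tested were. CXCL16 was at 8.71 to 20.1 TPM over condition means.

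The receptors were scarcely measured in these cells. CXCR1 and CXCR2 were below 0.1 TPM in every condition mean, and ACKR1, a scavenger of these chemokines, was listed at 0 in all 12 libraries. SDC4 and SDC1, cell-surface proteoglycans whose sugar chains can hold chemokines, were at 214 to 621 and 176 to 361 TPM over condition means. GPC1, another proteoglycan, was at 4.91 to 11.3 TPM, and ACKR3, an atypical receptor of CXCL11 and CXCL12, at 0.208 to 2.79 TPM. Of the 5 tested genes on this list of 8, 1 was higher and 3 lower in MLN vs Ctrl, where 32.2% and 29.4% of all genes tested were. In shARF vs Ctrl 1 was higher and 2 lower, where 21.0% of all genes were higher, near the share on this list, and 20.4% lower. ACKR3 was lower in shARF (-2.54 ± 0.42, limma, adjusted p = 0.00708) and higher in Both than in shARF (2.86 ± 0.29, adjusted p = 0.000343). SDC4 was lower in shARF than in Ctrl (-1.54 ± 0.04, limma, adjusted p = 4.08e-05).

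The cytokines that induce these chemokines split under MLN4924 as well. IL1B, an inducer of CXCL8, had 2767 ± 145 TPM for Ctrl (SD, n = 3), 291 ± 8.18 for MLN, 18.9 ± 2.08 for shARF, and 5.93 ± 0.607 for Both. IL1B was lower in MLN than in Ctrl (-3.25 ± 0.07, SE; limma, adjusted p = 2.05e-06) and lower in Both than in MLN (-5.60 ± 0.08, adjusted p = 1.33e-05). IL1A, the other interleukin-1 ligand, had 11.3 ± 0.488 TPM for Ctrl, 49.7 ± 6.37 for MLN, 0.567 ± 0.154 for shARF, and 20.6 ± 2.75 for Both. IL1A was higher in MLN than in Ctrl (2.12 ± 0.10, limma, adjusted p = 1.81e-05), lower in shARF (-4.12 ± 0.18, adjusted p = 0.000132) and higher in Both than in shARF (4.97 ± 0.20, adjusted p = 9.99e-06). The receptor subunits TNFRSF1A (123 to 135 TPM over condition means) and IL17RC (35.7 to 48.1 TPM) were measured at steadier levels. Of the 14 tested genes among the 15 cytokines and receptors, 7 were higher and 4 lower in MLN vs Ctrl, and 1 was higher and 9 lower in shARF vs Ctrl. Of all genes tested, 32.2% were higher and 29.4% lower in MLN vs Ctrl, and 21.0% and 20.4% in shARF vs Ctrl, so that the 4 lower genes in MLN vs Ctrl were near the share of all genes. In Both vs MLN, 7 were lower (20.6% of all genes), and in Both vs shARF 4 were higher and 2 lower (28.3% and 32.8% of all genes).

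The 23 genes of the NF-kB pathway, all tested, moved in both directions. In MLN vs Ctrl 10 were higher and 11 lower, and in shARF vs Ctrl 5 were higher and 12 lower. Over all genes tested the shares were 32.2% higher and 29.4% lower in MLN vs Ctrl, and 21.0% higher, near that of the list, and 20.4% lower in shARF vs Ctrl. In Both vs shARF 10 were higher and 9 lower (28.3% and 32.8% of all genes), and in Both vs MLN 4 were higher and 7 lower (11.8% and 20.6%). For the interaction 9 were positive and 2 negative, where 11.2% and 17.1% of all genes tested were. Their median log2 difference was -0.06 in MLN vs Ctrl and -0.12 in shARF vs Ctrl. The 4 most abundant were IRAK1, a kinase of interleukin-1 signalling, NFKBIA, TNIP1 and IKBKG. NFKBIA, which encodes IκBα and is itself an NF-kB target, had 375 ± 18.8 TPM for Ctrl (SD, n = 3), 57.2 ± 5.65 for MLN, 72.9 ± 6.79 for shARF, and 42.9 ± 0.838 for Both. TNIP1, a partner of the inhibitor A20, had 254 ± 26.0, 58.8 ± 8.82, 46.5 ± 1.82 and 30.7 ± 0.713 TPM in the same order. NFKBIA and TNIP1 fell under MLN4924 in PC3 cells (NFKBIA -2.71 ± 0.08, limma, adjusted p = 5.92e-06; TNIP1 -2.12 ± 0.13, adjusted p = 4.67e-05). In that comparison CXCL8 and CXCL3 were called higher and CXCL1, CXCL2, CXCL5 and CXCL6 lower. In shARF vs Ctrl, where all 6 members were called lower, the log2 difference was -2.37 for NFKBIA and -2.45 for TNIP1. It was 0.61 for IRAK1 and 0.73 for IKBKG there. The part of these genes in the levels of the members was not tested. IKBKG, the regulatory subunit of the IκB kinase, rose in MLN vs Ctrl (1.21 ± 0.10, limma, adjusted p = 0.000146) and was at 43.0 to 146 TPM over condition means.

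Of the regulators of AU-rich and other short-lived mRNAs, ZC3H12A differed most between conditions. It encodes Regnase-1, an RNase that cuts inflammatory mRNAs. ZC3H12A had 197 ± 28.9 TPM for Ctrl (SD, n = 3), 39.7 ± 3.47 for MLN, 4.74 ± 1.01 for shARF, and 34.2 ± 1.29 for Both. It was lower in shARF than in Ctrl (-5.36 ± 0.20, SE; limma, adjusted p = 8.06e-05) and higher in Both than in shARF (2.85 ± 0.16, adjusted p = 3.37e-05). KHSRP (182 to 231 TPM), HNRNPD (62.2 to 105 TPM) and ELAVL1 (49.9 to 84.7 TPM), which bind AU-rich elements, differed by at most 0.57 on the log2 scale in each of the 4 pairwise comparisons fitted. ZFP36 and ZFP36L1, which bind AU-rich elements and promote decay, differed more; they are named after their values were seen. ZFP36 had 3.75 ± 1.20 TPM for Ctrl (SD, n = 3), 23.3 ± 0.717 for MLN, 5.86 ± 0.219 for shARF, and 16.0 ± 0.454 for Both. ZFP36L1 had 23.4 ± 1.59, 90.1 ± 7.26, 22.2 ± 0.410 and 83.1 ± 3.98 TPM in that order. ZFP36 and ZFP36L1 were higher in MLN than in Ctrl (2.66 ± 0.24, limma, adjusted p = 0.000191, and 1.94 ± 0.08, adjusted p = 1.28e-05). Of the 8 genes on this list, 2 were higher and 3 lower in MLN vs Ctrl, 3 were higher and 1 lower in shARF vs Ctrl, and 3 were higher and 4 lower in Both vs shARF. The shares of all genes tested were 32.2% and 29.4%, 21.0% and 20.4%, and 28.3% and 32.8% in that order.

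Most other secreted factors tied to neutrophils were lower under MLN4924 in PC3 cells. Of 14 tested genes among 15, 9 were lower and 2 higher in MLN vs Ctrl, and 10 were lower and 3 higher in shARF vs Ctrl. Of all genes tested, 29.4% were lower and 32.2% higher in the first comparison and 20.4% were lower and 21.0% higher in the second, where the 3 higher genes were near that share. In Both vs shARF 6 were higher and 3 lower (28.3% and 32.8% of all genes), and in Both vs MLN 3 were higher and 8 lower (11.8% and 20.6%). For the interaction 11 were positive and 2 negative, where 11.2% and 17.1% of all genes tested were. The median log2 difference of the 14 was -2.15 in MLN vs Ctrl and -5.25 in shARF vs Ctrl. LCN2, an iron-binding protein of epithelia and neutrophil granules, had 2772 ± 102 TPM for Ctrl (SD, n = 3), 78.8 ± 5.25 for MLN, 6.95 ± 0.895 for shARF, and 5.50 ± 0.573 for Both. LIF, an interleukin-6 family cytokine, had 353, 90.8, 62.8 and 67.3 TPM. MMP1, a collagenase, rose in MLN vs Ctrl (2.88 ± 0.06, SE; limma, adjusted p = 2.47e-06) and in shARF vs Ctrl (3.41 ± 0.06, adjusted p = 1.4e-05). S100A9, a calcium-binding protein of myeloid cells and inflamed epithelia, fell in MLN vs Ctrl (-1.54 ± 0.18, limma, adjusted p = 0.000527) and rose in shARF vs Ctrl (3.47 ± 0.13, adjusted p = 7.85e-05).

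**Figure D3:**
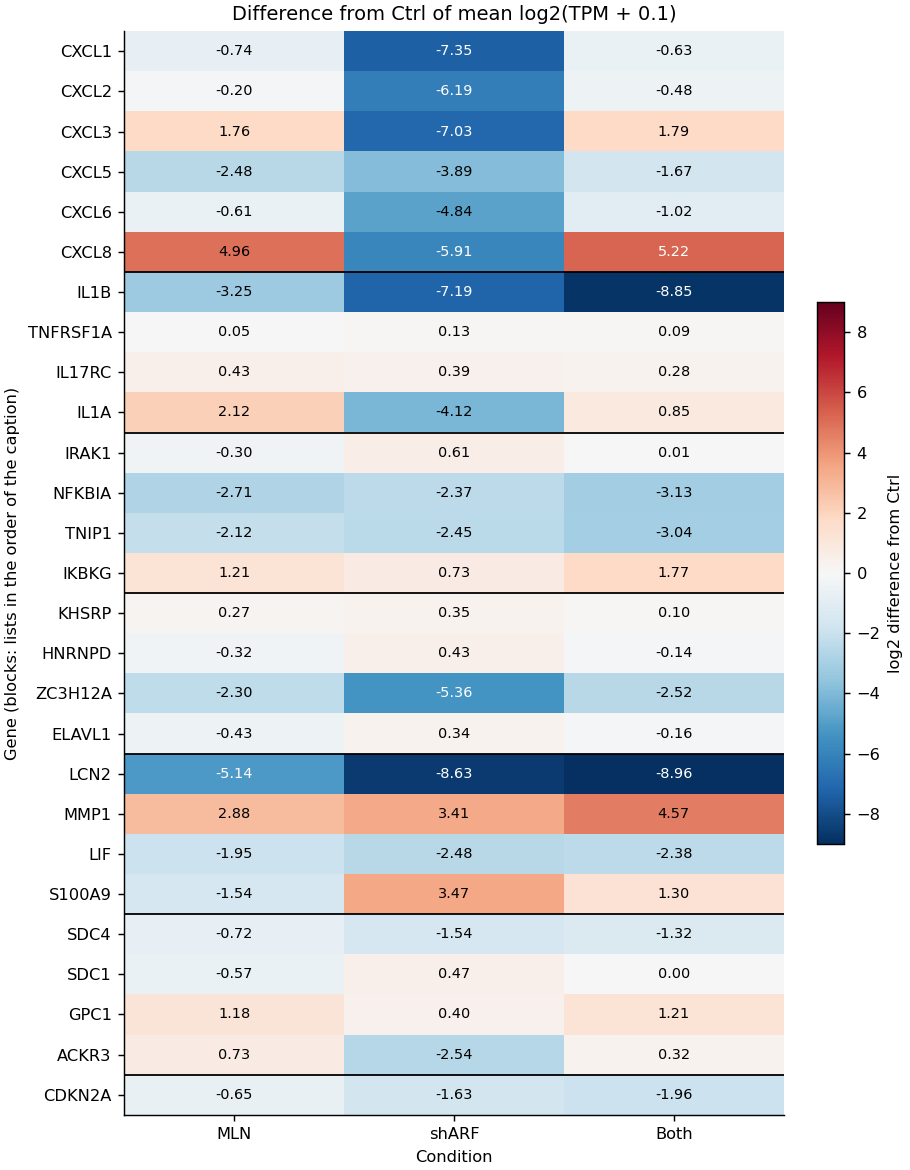
Difference from Ctrl of the mean log2(TPM + 0.1) in MLN, shARF and Both. From the top, blocks hold the 6 chemokines, inducing cytokines and receptors, NF-kB pathway genes, regulators of mRNA decay, other neutrophil-related factors, receptors and scavengers, and CDKN2A. CXCL8 was higher in MLN and Both (4.96 and 5.22), whereas IL1B and LCN2 were lower in all 3 conditions.

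By pattern over the 12 libraries, the genes most like the members were found among 14658 others that averaged 1 TPM or more. The measure was the root mean square difference in log2(TPM + 0.1), with each gene set to its Ctrl mean, from the median of the 6 members. INHBA was nearest (0.62), followed by KYNU (0.72), TCIM (0.88) and HOXB9 (1.17). The next 4 were AL355076.2 (1.28), GPC5-AS1 (1.32), LINC02246 (1.35) and BCL2A1 (1.37). INHBA, which encodes a subunit of activin A, had 112 ± 0.764 TPM for Ctrl (SD, n = 3), 112 ± 3.29 for MLN, 1.60 ± 0.144 for shARF, and 34.4 ± 1.94 for Both. KYNU, an enzyme of tryptophan breakdown, had 5.37, 6.78, 0.0684 and 5.71 TPM. Of the members themselves, CXCL2 lay closest to their median (0.14) and CXCL8 furthest from it (3.94). Taken singly, CXCL1 and CXCL2 were nearest to INHBA (0.93 and 0.64), CXCL6 to TCIM (0.47) and CXCL3 to SFTA1P (1.50). No nearest gene is given for CXCL5, which was listed at 0 in 2 of the 3 shARF libraries. Distances to genes near or under 0.1 TPM in a condition, such as KYNU and SFTA1P in shARF, also depend on the pseudocount. CXCL8 was nearest to AC105999.2 (1.49), about as far as CXCL3 was from SFTA1P. AC105999.2 had 2.47, 112, 0.200 and 47.8 TPM in Ctrl, MLN, shARF and Both.

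The genes around the members were examined for 300 kb on either side and between them. Of 26 annotated genes there, 11 were in the table and 6 were tested. All 6 were higher in MLN than in Ctrl, where 32.2% of all genes tested were. The 6 were AFP, RASSF6, PPBP, MTHFD2L, EPGN and EREG. In shARF vs Ctrl, EPGN was lower (-2.32 ± 0.31, SE; limma, adjusted p = 0.00355), as were 20.4% of all genes, and the other 5 were not called. AFP, which encodes alpha-fetoprotein, had 0.654 ± 0.362 TPM for Ctrl (SD, n = 3), 18.5 ± 1.54 for MLN, 0.642 ± 0.114 for shARF, and 28.5 ± 1.39 for Both. EREG, an epidermal growth factor receptor ligand, had 0.663, 2.70, 0.658 and 2.99 TPM, and EPGN, another such ligand, had 2.05, 9.28, 0.346 and 14.6 TPM. MTHFD2L, a mitochondrial folate enzyme encoded near CXCL2, had 7.36, 20.4, 5.63 and 37.7 TPM. All 6 neighbours were higher in Both than in shARF (28.3% of all genes tested were), and 3 (PPBP, MTHFD2L and EPGN) had a positive interaction (11.2% of all genes). RASSF6 lies closest to CXCL8 among tested genes on its far side and had 1.25, 2.98, 1.73 and 2.96 TPM.

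**Figure D4:**
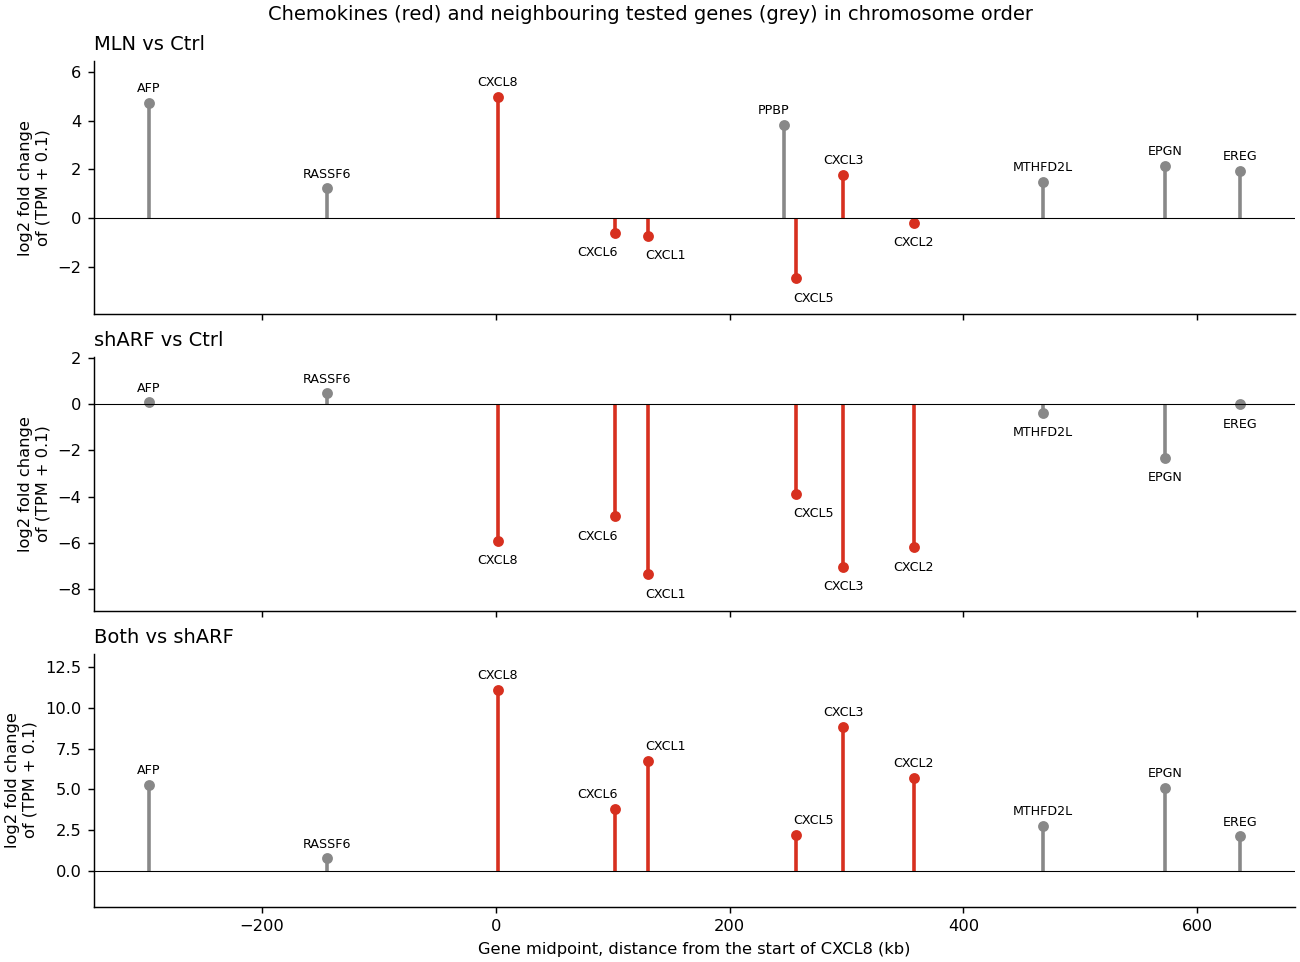
Log2 difference of TPM + 0.1 for the 6 chemokines (red) and the tested neighbouring genes (grey), by distance of the gene midpoint from the start of CXCL8 in kb, in MLN vs Ctrl, shARF vs Ctrl and Both vs shARF. PPBP is left out of both panels with shARF, where it was listed at 0. In shARF vs Ctrl the 6 chemokines lay between -3.89 and -7.35, and AFP, RASSF6, MTHFD2L and EREG lay within 0.46 of 0.

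Markers of other cells were measured beside the members. The counts called on these lists stand against 32.2% of all genes tested higher and 29.4% lower in MLN vs Ctrl, and 21.0% higher and 20.4% lower in shARF vs Ctrl. Of 10 leukocyte markers, 5 were tested; their summed level was 212 to 266 TPM for Ctrl, 444 to 612 for MLN, 116 to 145 for shARF, and 309 to 352 for Both. CD68 (84.6 to 545 TPM over condition means) and LYZ (5.99 to 44.0 TPM) made up nearly all of it. PTPRC, the pan-leukocyte marker, had 0.0242 TPM for Ctrl, 0.268 for MLN, 0.0188 for shARF, and 0.285 for Both. It was thus among the tested genes only through its level in the MLN4924-treated libraries. FCGR3B, a neutrophil marker, had 0.264, 0.130, 0.698 and 0.145 TPM in the same order, and CD14 was at 0.161 to 0.449 TPM over condition means. ITGAM, CSF3R, MPO, ELANE and CD3E were each below 0.1 TPM in every condition mean. In MLN vs Ctrl 2 of the 5 tested were higher and 1 was lower, and in shARF vs Ctrl 1 was higher and 1 lower, near the shares of all genes. CD68, also a lysosomal protein of non-immune cells, was higher in MLN than in Ctrl (1.54 ± 0.19, SE, limma, adjusted p = 0.00064). LYZ went the other way, with 43.6 TPM in Ctrl and 5.99 TPM in MLN (log2 difference -2.84). Of 7 fibroblast and endothelial markers 4 were tested, and their summed level was 18.9 to 21.8 TPM for Ctrl, 22.2 to 24.2 for MLN, 10.7 to 12.6 for shARF, and 11.7 to 12.8 for Both. In MLN vs Ctrl 2 of these 4 were higher and 1 lower, and in shARF vs Ctrl 1 was higher, near the share of all genes, and 2 were lower. COL3A1 (0.525 to 5.79 TPM) and COL1A1 (4.04 to 18.2 TPM) were the most abundant with PECAM1 (0.173 to 11.7 TPM), and VWF and DCN were near 0. Of 10 epithelial and prostate markers 7 were tested, with 1 higher and 5 lower in MLN vs Ctrl and 4 higher and 1 lower in shARF vs Ctrl. The part of these markers in the results on the chemokines was not tested.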

How the data were processed

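RNA-seq of PC3 cells in 4 conditions with 3 libraries each was analysed from the values the authors deposited, which are TPM for 43622 genes. Per the paper's methods, reads were trimmed, mapped to hg38 and quantified on an Ensembl annotation in CLC Genomics Workbench. Depth is not kept in TPM, so low values carry an unknown counting error. Conditions follow the sample labels, and the numbers in the column names are not described there. The design text gives the drug in mM and calls the depletion a knockout, whereas the protocol label and the methods give µM and shRNA, which were followed.

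The 19932 genes that averaged 0.1 TPM or more across the 12 libraries were tested on log2(TPM + 0.1) with limma 3.58.1 in R 4.3.3 (lmFit, eBayes with trend). Pairwise comparisons used 6 libraries and the interaction used 12. P-values were adjusted by Benjamini-Hochberg over all 19932 genes, two-sided, with calls at 0.05. Steps were first checked on simulated data. Members, gene lists and tests were chosen with earlier results of these data known. Named were the members, CDKN2A, up to 4 of the most abundant genes of each list among those averaging 1 TPM or more (all of lists under 5), the tested neighbours, and the genes of most similar pattern. ZFP36, ZFP36L1 and single genes named beside a list count were added after their values were seen. The lists were other neutrophil-attracting and platelet chemokines, other CXC and CX3C chemokines, receptors and scavengers, inducing cytokines, the NF-kB pathway, mRNA decay regulators, other neutrophil-related factors, and markers of epithelium, leukocytes, and fibroblasts and endothelium.

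Positions and transcripts came from GENCODE 44, another release than the authors' annotation, and promoters from RefSeq. Sequences were aligned with Biopython 1.88. Alternatives were other pseudocounts (1 and 0.01), filters (1 TPM and none), median-of-ratios scaling, a replicate block, 1 fit of the 12 libraries, eBayes with no trend, and leaving out each library. One gene of the epithelial marker list is not reported here.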

Additional observations from a re-analysis of the deposited data

Results flagged for a closer look

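The drug's effect differed between depleted and undepleted cells for each of the 6 chemokines, by the interaction term of the limma fit over 12 libraries. On the log2(TPM + 0.1) scale, the drug's difference in depleted cells less that in PC3 cells was 7.47 for CXCL1, 5.91 for CXCL2, 7.06 for CXCL3, 4.69 for CXCL5, 4.42 for CXCL6 and 6.16 for CXCL8. The members were selected on these conditions, so the values are a description. For CXCL1, CXCL2, CXCL5 and CXCL6 the difference had opposite signs in the PC3 cells (-0.74, -0.20, -2.48 and -0.61) and in the depleted cells (6.73, 5.71, 2.22 and 3.81). For CXCL3 and CXCL8 it was positive in both, at 1.76 and 8.82 and at 4.96 and 11.12. Groups of 3 libraries were too small for a search for single libraries that stand apart.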

How the results depend on the processing

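Of 652 values recomputed under the alternatives, 616 kept their direction and their side of the threshold (or stayed within 1.5 times for counts), and 36 did not. In each interaction setting all members tested were called positive, which is 5 under the filter at 1 TPM and 6 otherwise. The numbers in the column names were tried as a replicate block, although deviations of same-numbered libraries correlated at only -0.147 to 0.063 over 10 pairs and nothing says that the numbers mark a shared batch. With the replicate block, 5708 genes were called in MLN vs Ctrl (12283 without it) with 1 member lower instead of 4, and 3105 genes in the interaction (5645 without it). CXCL1, CXCL2 and CXCL6 lost their calls in MLN vs Ctrl, with differences of -0.77, -0.21 and -0.56 under the block. Without it they were -0.74, -0.20 and -0.61. The block took up residual degrees of freedom in that comparison too. In shARF vs Ctrl the block left 1 residual degree of freedom instead of 4: limma called 0 genes (8251 without it) and 0 members lower, with adjusted p of 0.0607 to 0.0652 for the members, while 7757 genes and all 6 members had an unadjusted p under 0.05. No paired analysis was possible for Both vs MLN and Both vs shARF because they share fewer than 2 numbers. In Both vs MLN, median-of-ratios scaling called 1 member higher (CXCL5) and 1 lower (CXCL6), with the call for CXCL2 lost, and eBayes without trend called 1 higher. Leaving out 1 library there gave 4005 (without MLN library 2) to 5731 genes called, against 6464, with 0 to 1 members higher and 1 to 2 lower; without Both library 2 it gave 4199. CXCL3 ran there from -0.042 (without MLN library 2) to 0.0896 (without MLN library 1), with -0.00064 without Both library 3, uncalled in each case. Scaling moved the split of calls in Both vs MLN from 2352 higher and 4112 lower to 3663 and 3466, and in the interaction from 2229 positive and 3416 negative to 3216 and 2790. CXCL2 in MLN vs Ctrl also lost its call with 12 libraries in one fit and with eBayes without trend. CXCL5 has no value under the filter at 1 TPM, and the fit of 12 libraries is no alternative for the interaction. The cause of these shifts was not tested. Depth is unknown, so the counting error of CXCL5 cannot be given.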
